A study of Mus musculus with 6 samples.

Results

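A set of 30 genes of cholesterol synthesis, sterol sensing, lipoproteins and cholesterol removal was followed in RNA-seq libraries of cells sorted from the mouse olfactory bulb, 3 from Sox9 KO and 3 from control mice. The members were taken by gene symbol, and the set was chosen with earlier results of these data known. All 30 were found among the 24421 genes listed in each library. They comprise 18 enzymes of the synthesis route, 4 regulators of the sterol response, 2 liver X receptors, 2 sterol exporters, 2 lipoprotein proteins, and 1 enzyme each for cholesterol storage and for its removal. Both groups were male mice of the C57BL/6 strain that received AAV-GFAP-iCre-P2a-TurboRFP in the olfactory bulb, so that the controls carried Cre and TurboRFP as well. The KO group was Sox9fl/fl, and the controls were wild type at Sox9 (named C57BL/6J or Sox9+/+). The GFAP promoter, which is active in astrocytes, drove Cre, and cells positive for TurboRFP were collected 4 weeks after injection, from adult mice. The sort was not checked by sorting again, and the study instead judged purity from marker genes in the RNA-seq data. The study addressed what loss of the transcription factor Sox9 does to adult olfactory bulb astrocytes.

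The brain makes nearly all of its own cholesterol, because lipoproteins of the blood do not cross into it, and in the adult the astrocyte is a main producer that passes cholesterol to neurons on lipoprotein particles. Synthesis starts from acetyl-CoA, runs through mevalonate and isoprenoids to squalene, and then closes and trims the sterol ring. When sterols are scarce, SCAP carries the SREBP factors to the Golgi for cleavage and they switch on the enzyme genes, and when sterols are plentiful INSIG holds SCAP back while liver X receptors turn on the exporters.

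Values are normalized counts, that is, reads on a gene after division by the size factor of its library. A gene was called lower or higher in Sox9 KO where limma gave an adjusted p under 0.05 (Benjamini-Hochberg over all 18413 genes tested) and a change of at least 1.5-fold, and changes are KO minus control on log2(normalized count + 1), given with their standard error (SE). All 30 members passed the filter of a mean of at least 1 normalized count, and none was at 0 in any library. Libraries held 18242129 to 86906527 reads on genes, and the members with the fewest reads were Nr1h3, with 30 to 98 in any library, and Cyp46a1, with 13 to 107 in KO. Sox9 itself averaged 5556 ± 881 normalized counts in controls (SD, n = 3) against 58.2 ± 5.88 in KO (SD, n = 3). No library stood apart from the others of its group, with correlations of log2 values between 0.970 and 0.981 within groups and between 0.882 and 0.903 across them.

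Of the 30 members, 20 were lower in Sox9 KO, 5 were higher and 5 were not called. Across all genes tested, 28.8% were called lower and 22.2% higher, so that the share of members called lower exceeded the background and the share called higher did not. The 3 KO libraries lay below all controls in 21 members and above them in 5, where 34.7% of all tested genes lay entirely below and 32.4% entirely above. The median log2 fold change of the members was −1.08, against −0.07 for all genes tested.

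**Figure D1:**
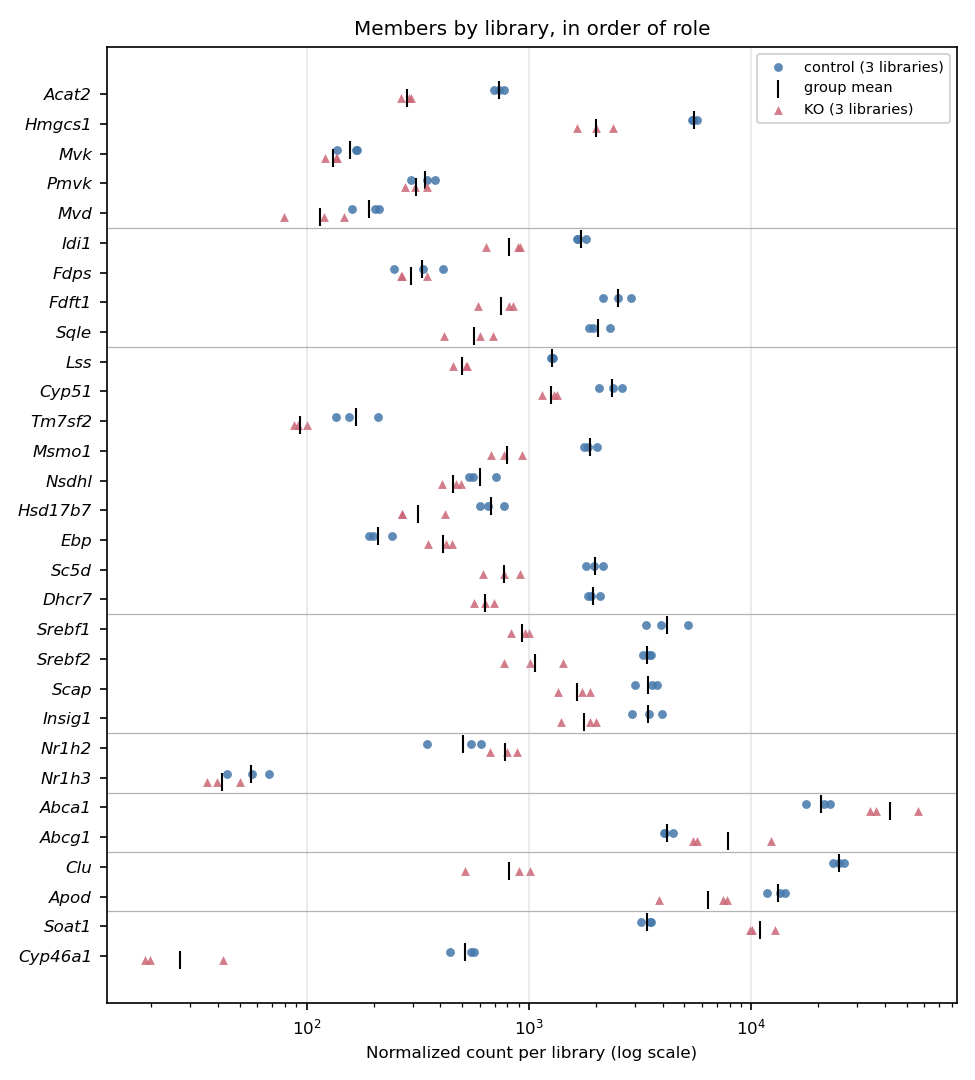
Normalized count of each member in every library on a log scale, in order of role, with circles for the 3 controls, triangles for the 3 KO libraries and a bar at each group mean. Triangles lie left of circles in most rows, and lie right of them in Ebp, Nr1h2, Abca1, Abcg1 and Soat1.

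These libraries differed in more than the sterol genes. All 12 astrocyte marker genes were lower in KO (median log2 fold change −3.97), and their summed level lay between 271938 and 301078 normalized counts in controls and between 27307 and 29544 in KO. All 14 microglia and macrophage marker genes were higher, with a median of 1.97, and their sum went from between 229059 and 258835 to between 898626 and 1041690. No gene of either list was at 0 in any library, so that markers of both cell types were present in every library of cells labelled astrocytes. In KO the microglia and macrophage sum exceeded the astrocyte sum. The lists hold different genes and the sums are not scaled for transcript length. The sums therefore do not show which cell type prevailed, in KO or in controls. Per kilobase of transcript, microglia and macrophage markers in KO averaged at least 3507 normalized counts and astrocyte markers at most 2417. In controls the 2 lists overlapped on this scale (1737 to 23837 and 1125 to 15847). The share of each cell type was not measured. Neuron markers fell in 10 of 12 genes, with a summed level between 17893 and 24241 in controls and between 2709 and 5030 in KO. Oligodendrocyte markers fell in all 8 genes (37676 to 66396 in controls, 15994 to 25763 in KO), oligodendrocyte precursor markers in all 5 (3390 to 4997, then 454 to 828), and olfactory ensheathing cell markers in 6 of 8 (36219 to 45967, then 10645 to 17086). Of 8 endothelial and mural markers 4 were lower and 1 was higher (2667 to 3268 in controls, 1503 to 1828 in KO). In bulk samples, fewer cells of a type and less RNA per cell cannot be told apart, and the part of cell composition in each change below was not tested.

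The enzymes that build mevalonate and turn it into isoprenoid units changed unevenly. Hmgcs1, the HMG-CoA synthase gene on chromosome 13 (119690379 to 119708260, plus strand, GENCODE M21 on mm10), had 5677, 5464 and 5427 normalized counts in controls and 1998, 2382 and 1644 in KO. Every KO library was well below every control, and the log2 fold change was −1.48 (SE 0.13, limma adjusted p = 3.1e-06). Acat2, the cytosolic acetoacetyl-CoA thiolase that supplies the substrate of HMG-CoA synthase, had 776, 697 and 733 in controls and 296, 266 and 289 in KO. Its libraries were tight in both groups, with a log2 fold change of −1.37 (SE 0.13, limma adjusted p = 5.7e-06).

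The 3 enzymes that phosphorylate and decarboxylate mevalonate had low counts and smaller changes. Mevalonate kinase (Mvk) had 167, 169 and 137 normalized counts in controls and 121, 137 and 135 in KO, and phosphomevalonate kinase (Pmvk) had 349, 296 and 377 against 347, 309 and 278. The groups overlapped in both genes, with log2 fold changes of −0.26 (SE 0.20, limma adjusted p = 0.29) and −0.13 (SE 0.16, limma adjusted p = 0.51). Mevalonate decarboxylase (Mvd) had 203, 211 and 161 in controls and 148, 120 and 79.0 in KO. The groups did not overlap, although the highest KO library and the lowest control were close, and Mvd was called with a log2 fold change of −0.76 (SE 0.26, limma adjusted p = 0.028). This call was lost without control replicate 1 (−0.72), control replicate 2 (−0.69) or KO replicate 3 (−0.51).

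Of the enzymes between isopentenyl diphosphate and squalene epoxide, 3 of 4 fell. Idi1, the isomerase that supplies both isoprenoid building blocks, had 1814, 1669 and 1649 normalized counts in controls and 911, 892 and 638 in KO, a log2 fold change of −1.09 (SE 0.14, limma adjusted p = 7.3e-05). Fdft1, squalene synthase, commits isoprenoids to the sterol branch, and its level went from 2873, 2152 and 2524 in controls to 811, 852 and 589 in KO. Sqle, squalene epoxidase, another control point of the route, had 2307, 1946 and 1863 in controls and 600, 689 and 416 in KO. These 2 genes had the largest falls among the 18 enzymes, with log2 fold changes of −1.75 (SE 0.16, limma adjusted p = 4.5e-06) for Fdft1 and −1.87 (SE 0.18, limma adjusted p = 6.5e-06) for Sqle. Of the exon bases of Fdft1, 20.9% are shared with Ctsb on the opposite strand, and whether counting used strand was not given in the sources used here. Other members also share exon bases with opposite-strand genes, among them Scap (18.6%), Hmgcs1 (16%), Idi1 (10.7%) and Lss (8.16%).

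Fdps, farnesyl diphosphate synthase, stands between Idi1 and Fdft1 and was not called. It had 333, 246 and 410 normalized counts in controls and 267, 349 and 267 in KO, with overlapping groups and a log2 fold change of −0.14 (SE 0.21, limma adjusted p = 0.57). Its sign turned positive without control replicate 3 (0.028). In the annotation 77.4% of its exon bases are shared with the same-strand gene Gm43738, so that its count is uncertain.

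The 9 enzymes that form and modify the sterol ring included 7 that fell, 1 that rose and 1 that was not called. Lanosterol synthase (Lss), which closes the ring, had 1268, 1286 and 1263 normalized counts in controls and 527, 521 and 457 in KO. The spread within each group was small beside the gap between them, with 1272 ± 11.9 in controls (SD, n = 3) and 502 ± 38.8 in KO (SD, n = 3), a log2 fold change of −1.34 (SE 0.11, limma adjusted p = 2.2e-06). Dhcr7, the reductase of the final step to cholesterol, had 2093, 1852 and 1907 in controls and 635, 696 and 565 in KO, and Sc5d, the desaturase acting before it, had 2150, 1961 and 1810 against 774, 914 and 624. Both were lower in every KO library, with log2 fold changes of −1.63 (SE 0.11, limma adjusted p = 7.1e-07) and −1.37 (SE 0.14, limma adjusted p = 1.4e-05).

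The demethylation enzymes moved the same way with smaller changes. Msmo1, the sterol methyl oxidase, had 2015, 1773 and 1847 normalized counts in controls and 775, 930 and 673 in KO, and Cyp51, the lanosterol demethylase, had 2620, 2060 and 2382 against 1294, 1334 and 1144. Their log2 fold changes were −1.25 (SE 0.13) and −0.90 (SE 0.11), both with groups well apart. Hsd17b7, the sterol ketone reductase, had 773, 652 and 602 in controls and 419, 267 and 267 in KO, a log2 fold change of −1.11 (SE 0.19). Tm7sf2, a sterol reductase of low level, had 210, 155 and 136 in controls and 100, 88.0 and 91.1 in KO, a log2 fold change of −0.81 (SE 0.24, limma adjusted p = 0.012) whose call was lost without control replicate 1 (−0.63). Nsdhl, the sterol dehydrogenase that works with Msmo1, stayed under the fold threshold. It had 707, 537 and 558 in controls and 496, 468 and 407 in KO, not overlapping, with a log2 fold change of −0.39 (SE 0.15, limma adjusted p = 0.044).

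Ebp, the sterol isomerase on chromosome X (8185329 to 8193512, minus strand), was the enzyme of the route that rose. It had 190, 200 and 241 normalized counts in controls and 451, 351 and 425 in KO. Every KO library was above every control, and the log2 fold change of 0.96 (SE 0.17, limma adjusted p = 0.00067) stayed between 0.63 and 1.39 under all alternatives tried. Over the 18 enzymes, 13 were lower, 1 was higher and 4 were not called, with a median log2 fold change of −1.10. Their summed level was 26526, 23325 and 24025 normalized counts in the controls against 10972, 11566 and 8990 in KO, a ratio of group means of 2.34. The sum of the enzymes up to squalene epoxide and the sum of the ring enzymes both fell, from between 12850 and 14499 to between 4336 and 5995 and from between 10476 and 12027 to between 4655 and 5571.

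**Figure D2:**
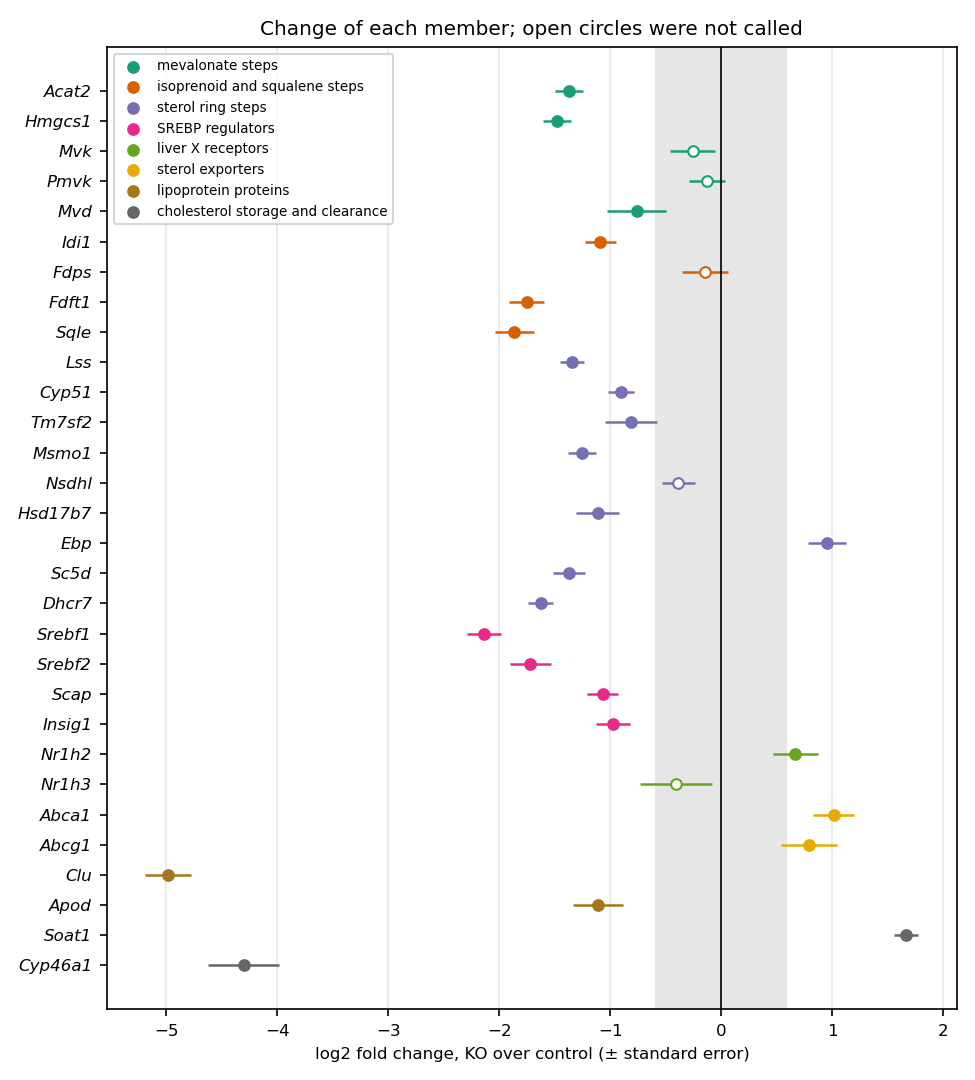
Log2 fold change of KO over control for each member, with bars of 1 standard error, colours by role and a grey band for changes under 1.5-fold; filled circles were called and open circles were not. Clu (−4.98) and Cyp46a1 (−4.30) lie far left of the enzymes, which lie between −1.87 and 0.96.

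The 4 member genes of the SREBP system were all lower. Srebf1, whose protein mainly drives fatty acid genes, had 5166, 3938 and 3362 normalized counts in controls and 834, 964 and 998 in KO. Srebf2, whose protein mainly drives the cholesterol enzymes, had 3523, 3459 and 3253 in controls and 1012, 1423 and 770 in KO. Both fell in every KO library, with log2 fold changes of −2.14 (SE 0.15, limma adjusted p = 7.6e-07) for Srebf1 and −1.72 (SE 0.18, limma adjusted p = 1.6e-05) for Srebf2. Scap, the escort of both factors, had 3782, 3559 and 2992 in controls and 1731, 1874 and 1347 in KO (log2 fold change −1.07, SE 0.14). Insig1, which retains SCAP and is itself a target of the SREBP factors, had 3947, 2909 and 3474 in controls and 1874, 2009 and 1398 in KO (log2 fold change −0.97, SE 0.15). Of 8 further genes of sterol sensing and SREBP processing tested (Ufd1 was not matched), 2 were higher, where 22.2% of all genes tested were higher. The 2 genes were Mbtps2, the protease that frees the SREBP factors, with a log2 fold change of 0.78 (SE 0.10), and Erlin1, with 0.89 (SE 0.10).

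Promoters were examined because 13 of the 18 enzymes fell, and those of 4 members are printed to show the motifs in place. RefSeq promoter windows of GRCm38.p6, from 250 bases before to 50 after an annotated start, were matched for 25 of the 30 members. They were searched on both strands for 5 short motifs. Sqle and Fdft1, the enzymes with the largest falls, had no window and were not searched, and nor were Fdps, Clu and Abcg1. The CCAAT box, the site of the SREBP partner NF-Y, was held by 14 of the 15 enzymes with a window, and by 41.1% of all 27025 genes with a window. It was also present in Srebf1, Srebf2, Insig1, Soat1 and Cyp46a1. The sterol response element TCACNCCAC was held by Hmgcs1 alone among the members with a window, 137 bases before the start, and by 1.44% of all genes. The E-box CACGTG was held by Abca1, Dhcr7, Hsd17b7, Insig1, Sc5d and Scap (8.09% of all genes), the nuclear receptor motif AGGTCA by Dhcr7, Hmgcs1 and Insig1 (18.1%), and the SOX motif AACAAT by Apod and Pmvk (12.2%). A match describes letters in the window and not a bound site, and the motifs are short enough to occur often. Only the letters given were searched. A window without a match, such as that of Abca1 for AGGTCA, may still hold a variant of the site.

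The 250 bases before the start are printed 5′ to 3′ on the strand of the gene, with matches to the sterol response element, the CCAAT box (read as ATTGG on the other strand) and the E-box in capitals. They lie at chr13:119690101-119690350 (plus strand) for Hmgcs1, chr9:42264301-42264550 (minus strand) for Sc5d, chrX:8193513-8193762 (minus strand) for Ebp and chr4:53159896-53160145 (minus strand) for Abca1. Hmgcs1 and Sc5d are enzymes that fell, Ebp is the enzyme that rose, and Abca1 is the exporter with a matched window. Hmgcs1 and Sc5d were printed for their motifs and are not typical. Of the 15 enzymes with a window, 1 held the sterol response element (Hmgcs1) and 3 held an E-box (Sc5d among them).
Hmgcs1: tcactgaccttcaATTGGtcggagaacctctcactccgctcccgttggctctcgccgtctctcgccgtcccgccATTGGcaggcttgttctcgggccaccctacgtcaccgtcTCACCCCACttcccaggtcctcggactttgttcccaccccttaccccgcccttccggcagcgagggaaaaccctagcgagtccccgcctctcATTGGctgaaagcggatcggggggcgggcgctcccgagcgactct
Sc5d: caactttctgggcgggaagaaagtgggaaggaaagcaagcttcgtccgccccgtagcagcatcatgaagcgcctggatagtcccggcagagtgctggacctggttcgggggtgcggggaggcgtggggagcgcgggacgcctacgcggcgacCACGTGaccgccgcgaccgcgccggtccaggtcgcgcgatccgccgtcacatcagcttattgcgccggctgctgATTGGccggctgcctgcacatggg
Ebp: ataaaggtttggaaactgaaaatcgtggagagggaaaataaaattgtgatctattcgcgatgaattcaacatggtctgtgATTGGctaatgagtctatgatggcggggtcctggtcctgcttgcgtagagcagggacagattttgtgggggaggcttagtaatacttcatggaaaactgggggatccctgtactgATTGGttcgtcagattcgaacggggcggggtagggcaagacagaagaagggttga
Abca1: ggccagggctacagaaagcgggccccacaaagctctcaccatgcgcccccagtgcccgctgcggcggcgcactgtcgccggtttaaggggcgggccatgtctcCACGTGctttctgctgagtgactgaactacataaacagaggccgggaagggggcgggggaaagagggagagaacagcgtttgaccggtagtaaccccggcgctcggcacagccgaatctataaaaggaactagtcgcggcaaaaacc

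In the printed bases Hmgcs1 holds CCAAT boxes at 3 places and Ebp at 2. With a match in 14 of 15 enzymes, the CCAAT box says nothing of how the enzyme that rose differs from the others.

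The liver X receptors, nuclear receptors that respond to oxysterols, did not move together. Nr1h2, the broadly expressed receptor, had 611, 548 and 348 normalized counts in controls and 794, 887 and 668 in KO. The KO libraries lay above the controls by a small margin, and the log2 fold change was 0.67 (SE 0.20, limma adjusted p = 0.016), no longer called without control replicate 3 (0.43) or KO replicate 2 (0.58). Nr1h3, the receptor of macrophages and liver, had low counts, with 43.8, 67.4 and 56.7 in controls and 39.7, 35.5 and 50.1 in KO. Its groups overlapped and it was not called (log2 fold change −0.41, SE 0.32, limma adjusted p = 0.30).

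Their classic target genes, the exporters, were both higher in KO, with 1 library well above the others. Abca1, which loads cholesterol onto lipid-poor apolipoproteins, had 22651, 21267 and 17529 normalized counts in controls and 34017, 36291 and 56374 in KO. Abcg1, which passes cholesterol on to lipoprotein particles, had 4058, 4424 and 4092 in controls and 5679, 5482 and 12320 in KO. Every KO library was above every control in both genes, and KO replicate 3 was the highest in both. That library had the lowest summed microglia and macrophage markers of the KO group (898626, against 983084 and 1041690 in the others), and the part of these markers in the rise was not tested. The log2 fold change was 1.01 (SE 0.18, limma adjusted p = 0.0007) for Abca1 and 0.79 (SE 0.25, limma adjusted p = 0.019) for Abcg1. Without KO replicate 3 they were 0.79 and 0.41, and Abcg1 was no longer called. Its call was also lost without any 1 of the control replicates (0.77 to 0.83), and after quantile normalization neither exporter was called (0.35 and 0.41).

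The lipoprotein proteins were the most abundant members in controls for their length and both fell. Clu, clusterin or apolipoprotein J, a secreted chaperone abundant in astrocytes, lies on chromosome 14 (65968483 to 65981547, plus strand). It had 24708, 26013 and 23276 normalized counts in controls and 516, 1012 and 904 in KO, which is 24666 ± 1369 (SD, n = 3) against 811 ± 261 (SD, n = 3). The gap was far wider than the spread of either group, with a log2 fold change of −4.98 (SE 0.21, limma adjusted p = 2.9e-08), the largest among the members and at percentile 0.451 of all genes tested. Apod, apolipoprotein D, a lipid-binding lipocalin of glia, had 11818, 14130 and 13474 in controls and 3861, 7435 and 7764 in KO. All KO libraries were lower, and KO replicate 1 was the lowest, with a log2 fold change of −1.11 (SE 0.22, limma adjusted p = 0.0015) that became −0.79 without that library.

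The storage enzyme and the removal enzyme went in opposite directions. Soat1, which esterifies cholesterol for storage in lipid droplets, had 3498, 3527 and 3200 normalized counts in controls and 12747, 9848 and 10092 in KO. It was higher in every KO library, with a log2 fold change of 1.67 (SE 0.11, limma adjusted p = 5.1e-07), the largest rise among the members. Microglia and macrophage markers were higher in the same libraries (median log2 fold change 1.97), and their part in this rise was not tested. Cyp46a1, the hydroxylase that makes cholesterol able to leave the brain and is known mainly from neurons, had 566, 547 and 441 in controls and 18.9, 42.2 and 19.7 in KO. The KO values rested on 19, 107 and 13 reads, and the log2 fold change was −4.30 (SE 0.32, limma adjusted p = 1.1e-06). Neuron markers were lower in the same KO libraries, with a median log2 fold change of −2.51.

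Per kilobase of the principal transcript, Clu (13628 normalized counts per kb), Apod (6336) and Abca1 (1996) were the highest of the 30 members in controls, followed by Hmgcs1 (1594). In KO the order of the means was Abca1 (4115), Apod (3063), Abcg1 (1342) and Soat1 (1302), while Clu (448) ranked 7 and Cyp46a1 (12.7) ranked last. The libraries of Clu and Apod did not overlap in controls on this scale, and neither did those of Abca1 and Hmgcs1, whereas in KO the libraries of Abca1 and Apod overlapped, as did those of Abcg1 and Soat1.

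**Figure D3:**
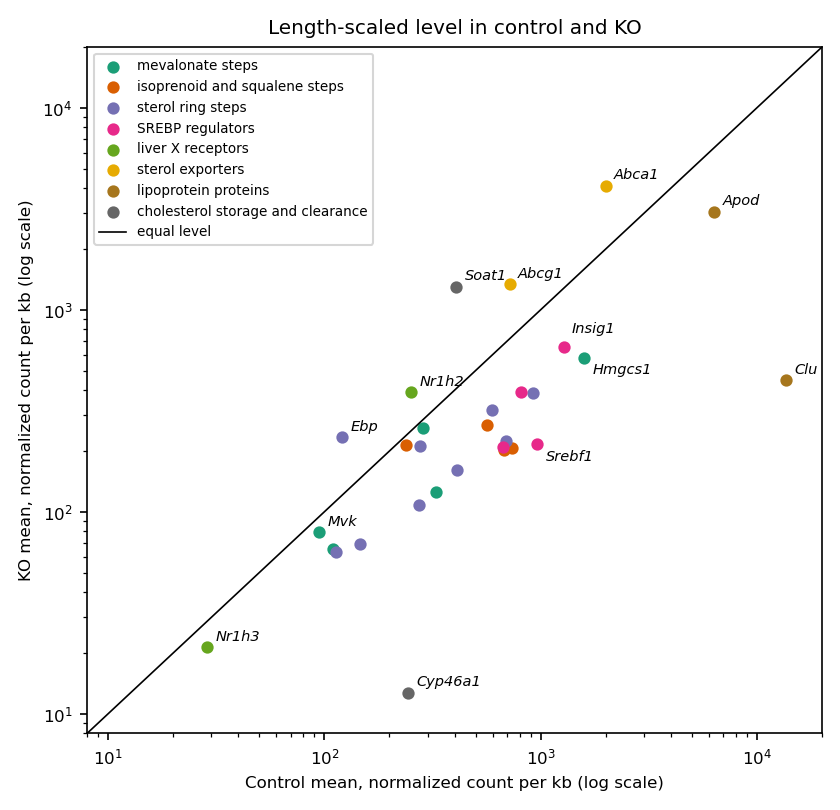
Mean level of each member in KO against its mean level in control, both in normalized counts per kilobase of transcript on log axes, with the line of equal level and colours by role. Abca1, Abcg1, Soat1, Nr1h2 and Ebp lie above the line, and Clu and Cyp46a1 lie farthest below it.

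The other genes of lipid handling, given as background to the members, split by function. For comparison with the counts below, 28.8% of all genes tested were lower and 22.2% were higher. Of 14 genes of fatty acid synthesis and desaturation, which are targets of SREBP-1, 13 were lower and none was higher, with a median log2 fold change of −2.25. Scd2, a desaturase, went from 76779 ± 7381 normalized counts (SD, n = 3) to 7915 ± 2198 (SD, n = 3). Elovl5, an elongase, had a log2 fold change of −2.28 (SE 0.10), and Fads1, a desaturase of polyunsaturated fatty acids, of −1.18 (SE 0.10). The gene not called was Acly, which makes cytosolic acetyl-CoA, with a log2 fold change of 0.45 (SE 0.09). The summed level of these 14 genes had a ratio of control to KO of 5.38, against 2.34 for the 18 cholesterol enzymes and 10.2 for the 12 astrocyte markers. The ratio of 5.38 rested largely on Scd2. That gene averaged 76779 in controls, where the sums were 124435 to 144441, and had a ratio of 9.70.

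**Figure D4:**
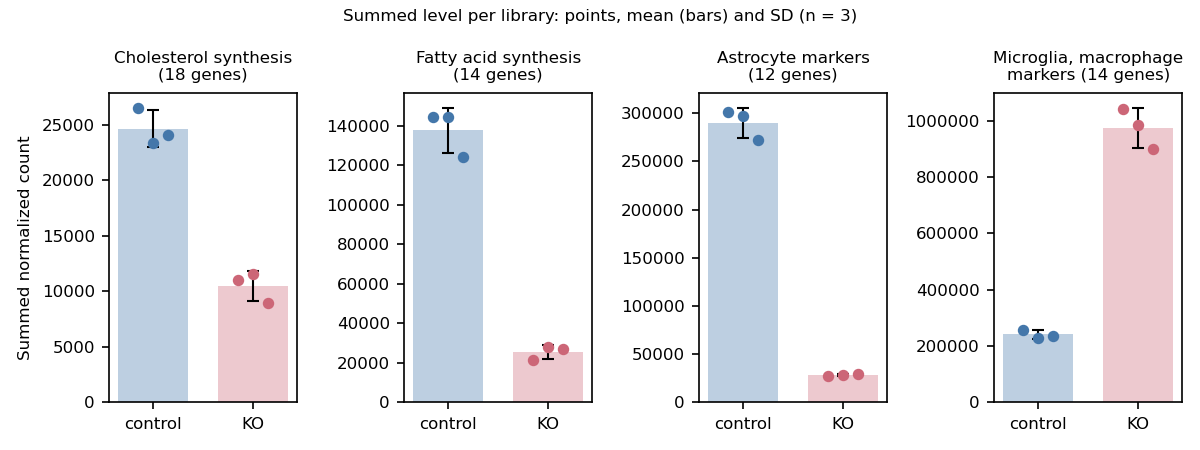
Summed normalized count per library of the 18 cholesterol synthesis enzymes, 14 fatty acid synthesis genes, 12 astrocyte markers and 14 microglia and macrophage markers, with points for libraries, bars for means and error bars for SD (n = 3). The first 3 sums are lower in every KO library and the last is higher.

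Uptake and intracellular transport genes leaned the other way, with 7 of 18 higher, 3 lower and 8 not called (median log2 fold change 0.43). The higher genes with the highest mean were Npc2, a cholesterol carrier of the lysosome (1.53, SE 0.09), Lipa, the lysosomal lipase of cholesterol esters (1.95, SE 0.12), and Mylip, a ligase that removes lipoprotein receptors (1.63, SE 0.14). The lower genes were the lipoprotein receptors Vldlr (−3.10, SE 0.17) and Lrp8 (−3.33, SE 0.25) and the sterol carrier Gramd1c (−2.18, SE 0.35). Among 13 tested genes of other exporters, lipoprotein assembly and esterification, 5 were lower and 4 higher, with a median of −0.00. Lcat, which esterifies cholesterol on lipoproteins, went from 9402 ± 1566 (SD, n = 3) to 772 ± 52.6 (SD, n = 3), Abca2 went from 3642 ± 276 (SD, n = 3) to 1486 ± 154 (SD, n = 3) and Abca5 had a log2 fold change of −0.76 (SE 0.20), while Lpl, the lipoprotein lipase gene, had a log2 fold change of 1.27 (SE 0.31), Nceh1, a cholesterol ester hydrolase, of 0.60 (SE 0.12) and Abca7 of 0.61 (SE 0.16).

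Of 5 tested genes of the oxysterol and bile acid routes 2 were lower, Cyp7b1 (−3.95, SE 0.30) and Ch25h (−1.34, SE 0.41), and 3 were not called. The groups of Ch25h overlapped. Every KO library lay below every control in 2 of the 5 genes and above in 2, against 34.7% and 32.4% of all genes tested. The isoprenoid side branch, which shares its substrates with cholesterol but leads to prenylated proteins, dolichol and ubiquinone, included 1 of 12 genes lower, 1 higher and 10 not called (median −0.02). The 2 called genes were Hmgcll1 (−1.68, SE 0.27) and the prenyltransferase subunit Pggt1b (0.72, SE 0.11). Over these 6 lists together, 25 of 70 tested genes were lower and 14 were higher, with a median log2 fold change of −0.03. The shares over all genes tested were 28.8% lower and 22.2% higher.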

How the data were processed

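RNA-seq was carried out on 6 libraries, 1 per mouse (3 control and 3 Sox9 KO). Per the methods and the submitters' processing notes, the authors mapped reads to mm10 with STAR (2.5.0a), used GenomicAlignments to count reads per gene, and then applied DESeq2 (1.20.0) for normalization. The annotation was not given in the sources used here. In unit, the deposited signal values, named RPM, were in every library 100% whole multiples (within 0.01 read) of 1 step, so they are counts divided by a size factor, and depth limits only weak genes. Of the listed symbols, 27 are dates and were left as they are.

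Genes with a mean of at least 1 were tested with limma 3.58.1 (R 4.3.3, variance trend, pseudocount 1, no block, two-sided), and recovered reads with edgeR 4.0.16 and DESeq2 1.42.0 as alternatives. Fold changes of weak genes are understated on this scale. Transcript lengths and coordinates are from GENCODE M21. The p-values set the difference between groups against the spread within groups of these 6 mice, with each variance moderated across genes. Scripts were tested on simulated data. The members and gene lists were chosen with earlier results of these data known. Every member is described. Of other lists, at most the 3 called genes with the highest mean in each direction are named, except Acly, picked after seeing its values, and Ufd1, which had no matching symbol. The marker and pathway lists come from general knowledge. A result of the sterol sensing list is not reported here.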

Additional observations from a re-analysis of the deposited data

How the results depend on the processing

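The numbers of members lower (20) and higher (5) came out the same with pseudocounts of 5 and 0.1, no filter beyond a mean above 0, a minimum mean of 10, TMM factors, edgeR and DESeq2, and each of these called the same 20 and 5 genes. The number higher was 3 with libraries scaled to the same total, with or without Rn45s, 3 after quantile normalization, 3 without the variance trend (where Abcg1, Nr1h2 and Mvd lost their calls), and 3 to 5 with each library left out in turn. Genes of the other pathway lists higher in KO went from 14 to 7 with libraries scaled to the same total, 6 with that total taken without Rn45s, and 22 with no fold threshold. These scalings moved the median log2 fold change of all genes by −0.23 (same total), −0.31 (without Rn45s) and 0.26 (quantile), and the share of called genes that were lower went from 56.4% to 67.8%, 71.5% and 43.5%. After quantile normalization the sign of 4 uncalled members turned, with log2 fold changes of 0.41 for Mvk, 0.27 for Pmvk, 0.28 for Fdps and 0.48 for Nr1h3, Mvd (−0.098), Tm7sf2 (−0.090), Abca1 and Abcg1 were no longer called, and Fdps ran from −0.34 to 0.028 with 1 library left out in turn. Nsdhl became called with libraries scaled to the same total (−0.63), where Nr1h2 (0.43) and Abcg1 (0.55) lost their calls. The cause was not tested.

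The labels give both groups replicate numbers 1 to 3, but nothing says that a number marks a shared litter or day, and same-numbered libraries did not deviate together (correlations of −0.051, −0.013 and −0.013). With the replicate block, 20 members were lower and 5 higher. Each replicate number holds a library of both groups, so the block can change standard errors and p-values but not fold changes. The log2 fold change of Srebf2 (−1.72) was therefore fixed to stay the same. Depth limits mainly Nr1h3 and Cyp46a1.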
